A study of Mus musculus with 36 samples.

Results

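The transcripts of 9 matrix metalloproteinase genes (Mmp2, Mmp3, Mmp7, Mmp8, Mmp9, Mmp10, Mmp12, Mmp13 and Mmp14) and of Timp1, which encodes an inhibitor of these enzymes, were followed by RNA sequencing across mouse genotypes with altered caspase-8. These 10 genes, of 52636 in the deposited files, were chosen by name for their function. The 36 libraries fell into 12 groups of 3: 6 groups of whole intestine built on caspase-8 D387A (18 libraries), 4 groups of whole intestine built on caspase-8 C362A (12 libraries), and 2 groups of mouse embryonic fibroblasts (MEFs, 6 libraries), all untreated. The study asked what cFLIP, the protein encoded by Cflar, holds in check when caspase-8 cannot process itself normally, and which of caspase-1, the type I interferon receptor and FADD the effects of its loss need.

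Intestines came from embryos at E18.5, and the strains had a C57BL/6N background. The control genotype in each of the 3 sets was Mlkl-/-, which removes the executioner of necroptosis. D387A denotes the Casp8 D387A knock-in, whose product cannot cleave itself at that site, and C362A the Casp8 C362A knock-in, whose product has lost its catalytic cysteine. In the D387A intestines the groups were control, D387A, D387A-Cflar (Casp8 D387A knock-in, Cflar-/-, Mlkl-/-), D387A-Cflar-Casp1 (the same with Casp1-/-), D387A-Cflar-Casp1-Ifnar1 (additionally Ifnar1-/-) and D387A-Cflar-Casp1-Fadd (additionally Fadd-/-). D387A alone carried intact Mlkl and so differed from its control at both Casp8 and Mlkl, whereas every other group in the series lacked Mlkl. In the C362A intestines the groups were control, C362A, C362A-Casp1 and C362A-Cflar, each with Mlkl-/-. The MEFs were control and D387A-Cflar, grown for a few passages from embryos freed of head and internal organs. The Cflar deletion in the D387A-Cflar animals descended from a single mosaic founder, which also carried a newly made Mlkl deletion. C362A-Cflar had another Cflar deletion, made in zygotes that already lacked Mlkl. The sets thus differ in the origin of these alleles as well. Titles of control and D387A-Cflar libraries in the D387A intestines share a number, while each of the other 4 genotypes has its own, so whatever this number stands for and the genotype cannot be told apart.

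Matrix metalloproteinases are zinc-dependent proteases that cut collagens, elastin and other matrix proteins, and also cytokines, chemokines and antimicrobial precursors. Most are secreted as inactive proenzymes that other proteases must cut, and TIMP proteins bind the active enzymes and block them. In the intestine, stromal cells are a known source of Mmp2, Mmp14, Mmp13, Mmp3 and Timp1, Paneth cells and injured epithelium of Mmp7, neutrophils of Mmp8 and Mmp9, and macrophages of Mmp12. Inflammatory cytokines are known to raise transcription of many of these genes through AP-1, a dimer of Fos and Jun family proteins.

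Of the 10 genes, 6 lie within 427.1 kb of chromosome 9 (GRCm38), in a cluster of 10 Mmp genes, in the order Mmp13 (chr9:7272514-7283331), Mmp12 (chr9:7344381-7369499), Mmp3 (chr9:7445822-7455975), Mmp10 (chr9:7502352-7510240), Mmp8 (chr9:7558456-7568485) and Mmp7 (chr9:7692090-7699585), all on the + strand. The rest are dispersed: Mmp2 at chr8:92827291-92853420, Mmp9 at chr2:164940780-164955850, Mmp14 at chr14:54431612-54445364 and Timp1 at chrX:20870166-20874735, inside the span of Syn1 on the opposite strand. Mmp7 overlaps the antisense gene AV064505 (44 reads over all libraries) and Mmp12 overlaps Mmp1b on the opposite strand (1 read), and as use of strand in counting is not stated, reads from such partners cannot be told apart. RefSeq promoter entries (GRCm38.p6) were at hand for 8 of the 10 genes, with 10 entries in all. The 250 bases upstream of each annotated start were searched on both strands for the AP-1 letters TGANTCA and for TATAAA, which do not overlap each other in these windows. AP-1 letters were found in 5 of these genes, Mmp13, Mmp12, Mmp3, Mmp10 and Mmp7, against 6.75% of all 32851 promoters in the table. TATAAA was found in 4, Mmp13, Mmp3, Mmp10 and Mmp7, against 12.4% of all promoters. Neither was found in the windows of Mmp8, Mmp14 or Timp1. A further entry each of Mmp12 (start at chr9:7344397) and Mmp7 (start at chr9:7692341) also held neither. Genes were counted when any of their entries matched, whereas the shares are over single entries. The NF-kB consensus was found in none of the 8 genes and in 3.9% of all promoters.

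The last 80 bases before the start are shown for the 5 clustered genes with AP-1 letters, since 4 of them are among the genes that moved together below; AP-1 letters and TATAAA are in capitals. On the + strand of chromosome 9 they span chr9:7272434-7272513 for Mmp13, chr9:7347294-7347373 for Mmp12 (before an annotated start that lies inside the gene), chr9:7445742-7445821 for Mmp3, chr9:7502262-7502341 for Mmp10 and chr9:7692010-7692089 for Mmp7.
Mmp13: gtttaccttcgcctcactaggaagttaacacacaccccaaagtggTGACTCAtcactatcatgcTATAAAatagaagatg
Mmp12: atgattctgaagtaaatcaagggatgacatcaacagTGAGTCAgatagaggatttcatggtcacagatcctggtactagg
Mmp3: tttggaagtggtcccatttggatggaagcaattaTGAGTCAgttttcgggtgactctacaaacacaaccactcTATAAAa
Mmp10: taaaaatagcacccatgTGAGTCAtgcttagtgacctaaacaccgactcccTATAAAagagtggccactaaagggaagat
Mmp7: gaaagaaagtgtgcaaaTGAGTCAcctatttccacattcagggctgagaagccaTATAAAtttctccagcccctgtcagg
The AP-1 letters began 35 bases before the start in Mmp13, 44 in Mmp12, 46 in Mmp3, and 63 in both Mmp10 and Mmp7. A match of letters is a description of sequence and not a site shown to be bound.

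The libraries held 17943524 to 32307629 reads on genes. Levels are given as RPKM, that is reads scaled to gene length and to library size by TMM factors, and of marker sums as CPM, reads scaled to library size. Casp1 was at or under 0.212 CPM in all Casp1-/- libraries against at least 42.6 CPM in the other intestines, Fadd was at 0.659 to 1.01 CPM in the Fadd-/- libraries against at least 25.5 CPM in the other intestines, and Ifnar1 at 33.2 to 37.9 CPM against at least 76.1 CPM. In MEFs, which carry both genes intact, Casp1 was at 0.515 to 0.754 CPM and Fadd at 14.1 to 16.6 CPM. Cflar was lower in D387A-Cflar than in control in intestine (33.8 to 38.5 against 45.7 to 50.5 CPM) and MEFs (55.9 to 60.3 against 84.9 to 92.5 CPM), and in C362A-Cflar than in control (39.7 to 44.4 against 54.5 to 57.2 CPM), but not in the 3 Cflar-/- genotypes that also lack Casp1 (42.4 to 59.4 CPM). Mlkl was at 10.9 to 13.9 CPM in the Mlkl-intact D387A group and at 2.13 to 62.6 CPM in the Mlkl-/- libraries, so summed counts of Mlkl did not separate its labels. In the third D387A-Cflar-Casp1 embryo, Mmp7, Mmp10 and Mmp13 were more than 2 times as high as in the other 2 embryos of that genotype, neutrophil markers summed to 77.9 CPM against 21.4 and 25.1 CPM, and macrophage markers to 625 CPM against 365 and 355 CPM. Calls, pathway list counts, orders and Mmp sums that involve this genotype are therefore also given without it where they changed. Marker sums are given without it where their overlap with the other group changed. All 10 intestinal epithelium markers were detected in every intestine group, with sums of 10388 to 11056 CPM in the D387A set's controls, while in MEFs the list summed to 40.7 to 68.2 CPM with Cdx2 and Fabp2 at 0.

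In control intestines the matrix metalloproteinase transcripts were mainly those of 2 genes of stromal tissue. In the D387A set's controls Mmp2, gelatinase A, had 50.8 ± 2.68 RPKM (SD, n = 3) and made up 55.2% of the summed level of the 9 Mmp genes, and Mmp14, the membrane-type enzyme that activates pro-Mmp2, had 29.1 ± 0.598 RPKM and made up 31.7%. Mmp9, gelatinase B, followed at 6.53 ± 0.543 RPKM and Timp1 at 5.45 ± 0.0892 RPKM. Mmp7 (2.89 ± 1.97 RPKM), Mmp13 (1.37 ± 0.149 RPKM) and Mmp10 (1.21 ± 0.239 RPKM) were low, with ranges that overlapped between neighbours in this order. Mmp8, Mmp12 and Mmp3 had at most 6, 3 and 0 reads per control library.

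**Figure D1:**
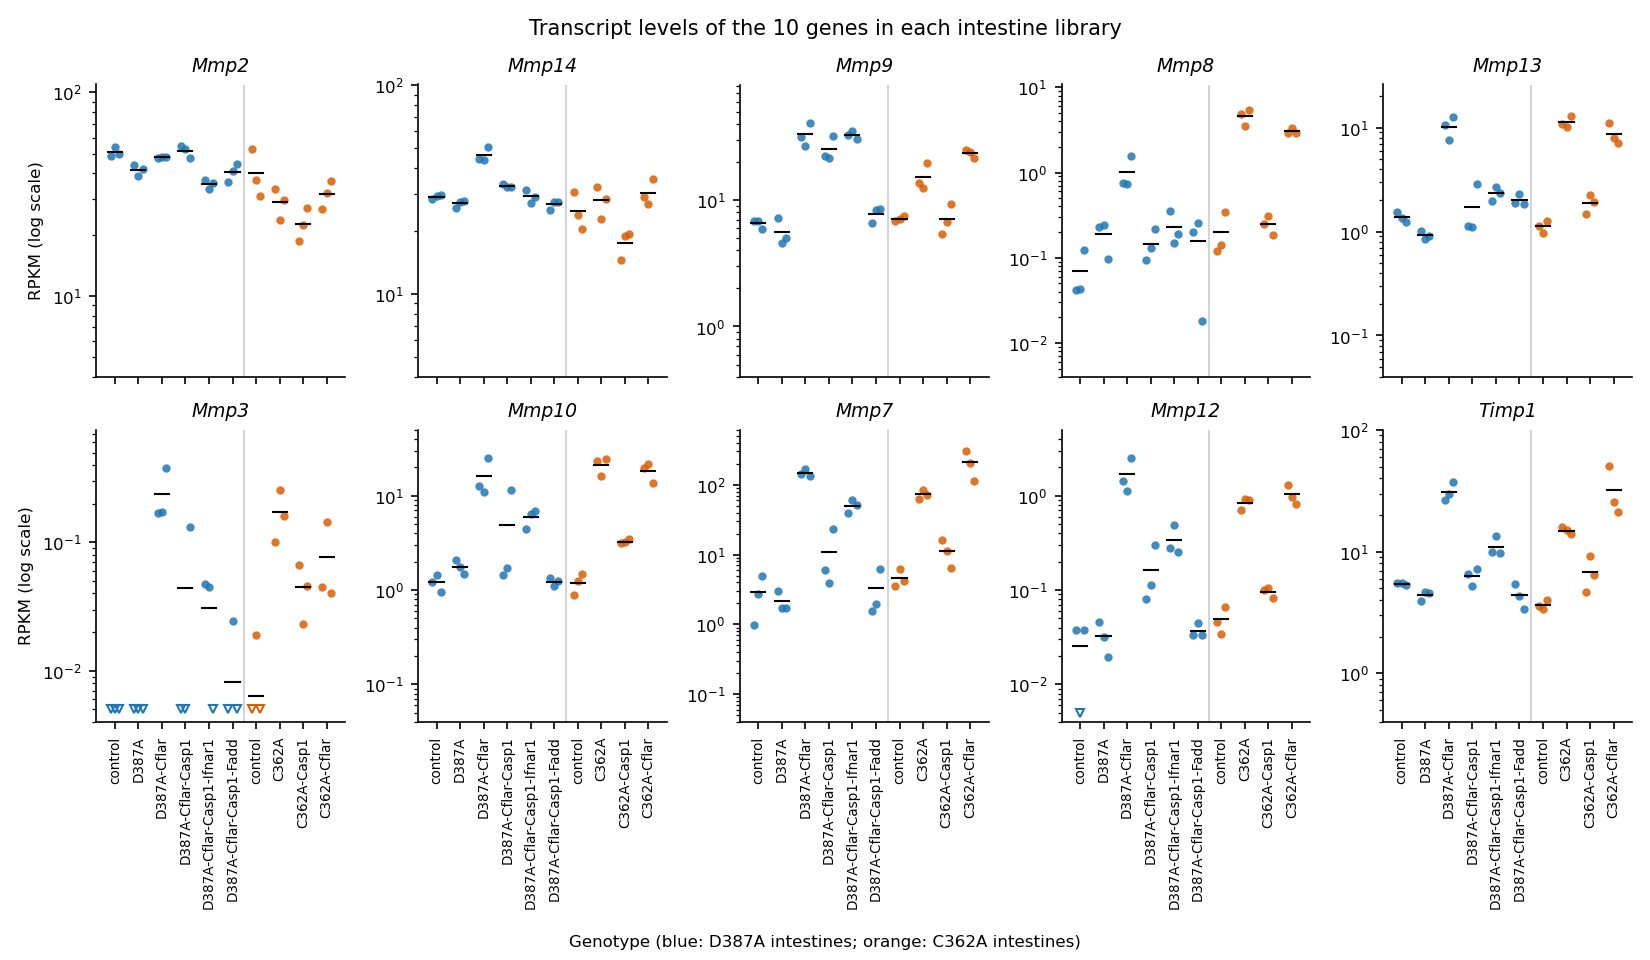
Level of each of the 10 genes in every intestine library, in RPKM on a log axis, by genotype; points are libraries (blue, D387A set; orange, C362A set), lines are group means and open triangles at the bottom mark libraries with 0 reads. Mmp7 lies between 133 and 167 RPKM in the 3 D387A-Cflar embryos and between 0.991 and 4.92 RPKM in their controls, while Mmp2 spans 18.7 to 54.7 RPKM over all intestine libraries.

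D387A-Cflar, which differs from control at both Casp8 and Cflar, was set against it to ask how these genes stand in the intestine affected in the study. In D387A-Cflar intestines 7 of the 9 genes tested rose, among them Mmp7, Mmp12, Mmp8, Mmp10, Mmp13, Timp1 and Mmp9, while Mmp2 and Mmp14 did not pass. Of all 18360 genes tested in the D387A intestines, 9.4% were called higher. A gene was called when its log2 fold change exceeded 1 in size and its adjusted p (edgeR quasi-likelihood test, Benjamini-Hochberg over all genes tested) was under 0.05. The median log2 fold change over the 9 tested genes was 2.91, against -0.01 over all genes tested. Mmp8 and Mmp12 passed the read filter only through genotypes with high levels and Mmp3 did not pass it. These counts, and those of the other comparisons in the D387A intestines, thus describe the list and support nothing beyond it. In whole tissue, a change in the number of cells of a type cannot be told apart from a change in RNA per cell, and the p-values measure the spread between embryos of a genotype.

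The gelatinases parted. Mmp2 had 47.9, 48.3 and 48.0 RPKM in the D387A-Cflar embryos and 48.8, 53.9 and 49.7 RPKM in controls, with a log2 fold change of -0.08 (SE 0.0819, adjusted p = 0.412). The D387A-Cflar embryos lay below all controls by less than the spread among those controls. Mmp9 had 31.2, 27.0 and 41.0 RPKM against 6.83, 6.87 and 5.91 RPKM, a rise of 2.34 on the log2 scale (SE 0.189, adjusted p = 1.3e-08), and the groups did not overlap. Mmp14 had 44.0, 43.8 and 50.3 RPKM against 28.4, 29.3 and 29.6 RPKM. All 3 embryos lay above all 3 controls, but the log2 fold change of 0.66 (SE 0.0736, adjusted p = 6.36e-07) was under the fold threshold.

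The collagenases, which cut fibrillar collagen, both rose. Mmp13, collagenase 3, had 10.5, 7.63 and 12.6 RPKM in D387A-Cflar against 1.53, 1.34 and 1.23 RPKM in control, a log2 fold change of 2.91 (SE 0.287, adjusted p = 1.48e-07). Mmp8, the neutrophil collagenase, had 42, 40 and 96 reads against 2, 2 and 6 reads, with 0.748, 0.737 and 1.58 RPKM in the mutant embryos. The log2 fold change of Mmp8 was 3.83 (SE 0.614, adjusted p = 3.85e-05) at levels far under those of Mmp13. With so few control reads this is a fitted value, which ran from 2.90 to 3.87 under other processing. The sum over 12 neutrophil markers was 48.4 to 151 CPM in D387A-Cflar and 14.9 to 34.4 CPM in control, 7 of the 11 tested markers rose and 1 fell, and Elane was at 0 in D387A-Cflar. The third D387A-Cflar embryo was highest for both Mmp8 and the neutrophil sum. The part of neutrophil number in the Mmp8 values was not tested.

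Of the stromelysins, which act on non-collagen matrix and cut other proenzymes, Mmp10 rose and Mmp3 was near the detection limit. Mmp10 had 12.8, 11 and 25.1 RPKM against 1.23, 1.43 and 0.958 RPKM (log2 fold change 3.76, SE 0.603, adjusted p = 3.89e-05). Its D387A-Cflar values thus spread widely, yet the lowest was several times the highest control. Mmp3 had 7, 7 and 17 reads in D387A-Cflar and 0 in each control. With 3 reads over the control group as the floor, which equals 0.0283 RPKM, the D387A-Cflar mean of 0.240 RPKM was at least 8.47-fold higher, a bound that covers counting error only. It entered the fit only without the read filter, where it was called (adjusted p = 0.000667).

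Mmp7, matrilysin, which in the intestine activates antimicrobial prodefensins, changed most in level. Its 141, 167 and 133 RPKM in D387A-Cflar stood against 0.991, 2.75 and 4.92 RPKM in control, a log2 fold change of 5.67 (SE 0.610, adjusted p = 4.18e-07). The controls themselves differed several fold, and every D387A-Cflar embryo exceeded all of them by far. The epithelial marker sum moved the other way, at 5183 to 5519 CPM in D387A-Cflar against 10388 to 11056 CPM, with 2 of 10 epithelial markers called higher and 1 lower. Mmp12, the macrophage elastase, had 131, 100 and 249 reads against 3, 0 and 3, or 1.42, 1.12 and 2.50 RPKM against at most 0.038 RPKM (log2 fold change 5.97, SE 0.566, adjusted p = 9.2e-08). This fitted value, too, rested on few control reads and ran from 5.15 to 6.09 under other processing. The sum over 10 macrophage and monocyte markers was 324 to 431 CPM in D387A-Cflar and 398 to 426 CPM in control, ranges that overlap, with 4 of the markers called higher and 1 lower.

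Timp1, which inhibits most of these enzymes, rose with them. It had 26.5, 30.0 and 37.0 RPKM in D387A-Cflar against 5.51, 5.50 and 5.35 RPKM in control, a log2 fold change of 2.51 (SE 0.179, adjusted p = 2.79e-09). The controls differed little among themselves and the groups lay far apart. Fibroblast markers (8 genes), a group of cells known to make Timp1, Mmp2 and Mmp14, summed to 4996 to 5174 CPM in D387A-Cflar and 3795 to 4168 CPM in control, and none of the 8 was called.

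The D387A knock-in with intact Cflar was compared with control to see what the mutation does without loss of cFLIP. No tested gene among the 10 was called by edgeR, DESeq2 or limma-voom, and 0.00545% of all genes were called in either direction. Mmp7 had 3.04, 1.72 and 1.71 RPKM, inside the control range. Mmp13 had 1.01, 0.844 and 0.914 RPKM, all under the controls, with a log2 fold change of -0.57. At an unadjusted p under 0.05 there was 1 gene, Mmp2, with 43.9, 38.7 and 42.2 RPKM and a log2 fold change of -0.29 (adjusted p = 0.96). The estimates ran from that of Mmp13 to 1.36 for Mmp8 (adjusted p = 0.966), which rested on 9, 14 and 6 reads. Epithelial markers (11343 to 11825 CPM) lay above and fibroblast markers (3122 to 3693 CPM) below all controls.

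Adding Casp1 loss to D387A-Cflar, which removes the inflammatory caspase that matures interleukin-1 beta, went with lower levels of most of the genes that had risen. Of the 9 tested, 6 fell against D387A-Cflar (Mmp7, Mmp12, Mmp8, Mmp13, Timp1 and Mmp10), while 4.51% of all genes were called lower, and Mmp9, Mmp14 and Mmp2 were not called. As it includes Mmp8 and Mmp12, this count too describes the list only. Mmp7 had 6.04, 3.87 and 23.1 RPKM (log2 fold change -3.75, SE 0.528, adjusted p = 1.93e-05). Timp1 had 6.55, 5.26 and 7.19 RPKM, which overlaps the controls (-2.30, SE 0.176, adjusted p = 1.92e-08). Mmp13 had 1.14, 1.11 and 2.89 RPKM (-2.59, SE 0.279, adjusted p = 1.08e-06), also overlapping control. Mmp9 differed in pattern, with 22.3, 21.5 and 32.3 RPKM that overlap the D387A-Cflar values (-0.38, SE 0.176, adjusted p = 0.0844). Without the third D387A-Cflar-Casp1 embryo the same 6 genes were called lower, with 6.36% of all 18690 genes, at log2 fold changes of -4.89 for Mmp7, -4.11 for Mmp12, -3.19 for Mmp13, -3.17 for Mmp8 and -2.40 for Timp1, and of -3.36 for Mmp10 in place of -1.74 (SE 0.522, adjusted p = 0.0111). The Mmp10 call was lost without the third D387A-Cflar embryo (-1.29, adjusted p = 0.0694) or the second D387A-Cflar-Casp1 embryo (-1.33, adjusted p = 0.0507), and with only the groups compared (adjusted p = 0.106). Marker sums moved as well: from D387A-Cflar to D387A-Cflar-Casp1 the T and NK cell list went from 15.6 to 23.5 CPM to 3.46 to 5.48 CPM, the smooth muscle list from 7063 to 8845 CPM to 4593 to 4966 CPM, the fibroblast list from 4996 to 5174 CPM to 3934 to 4577 CPM and the epithelial list from 5183 to 5519 CPM to 6262 to 8373 CPM, none with overlap. The neutrophil and macrophage sums, given above, overlapped, the neutrophil sums not without the third embryo. Their part in the metalloproteinase values was not tested.

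Against control, 4 of the 9 genes were called higher in D387A-Cflar-Casp1, with 2.16% of all genes called higher. Mmp9 rose by 1.96 on the log2 scale (SE 0.188, adjusted p = 5.52e-06) and all 3 embryos lay above all controls. Mmp12 (2.60, adjusted p = 0.0181), Mmp10 (2.02, adjusted p = 0.025) and Mmp7 (1.92, adjusted p = 0.0333) were called as well, and these calls rested on the third embryo. Mmp10 had 1.45 and 1.72 RPKM in the first and second embryos and 11.5 RPKM in the third. Without the third embryo, 1 gene was called, with 1.32% of all genes called higher, Mmp9 (1.74, SE 0.170, adjusted p = 2.76e-06), and the values were 0.78 for Mmp7 (adjusted p = 0.321), 0.40 for Mmp10 (adjusted p = 0.483) and 1.86 for Mmp12 (adjusted p = 0.105). Single controls also decided these calls: Mmp10 was not called without any 1 of the 3 controls (1.87 to 2.15), Mmp7 without the first (1.5) or second (1.88) and Mmp12 without the second (2.06). By limma-voom none of the 3 was called (adjusted p = 0.0809 for Mmp7, 0.214 for Mmp10 and 0.0624 for Mmp12), nor were Mmp7 (adjusted p = 0.132) and Mmp10 (adjusted p = 0.136) by edgeR with only the groups compared. Marker sums stood apart from control too, lower for epithelium (6262 to 8373 against 10388 to 11056 CPM), smooth muscle (4593 to 4966 against 5133 to 5574 CPM), T and NK cells (3.46 to 5.48 against 6.4 to 8.07 CPM) and stomach and pancreas (11.4 to 24.0 against 42.1 to 250.3 CPM) and higher for endothelium (406 to 449 against 323 to 357 CPM). Without the third embryo the macrophage sums (365 and 355 CPM) also lay below all controls (398 to 426 CPM). The part of these lists in the values above was not tested.

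Removal of Ifnar1, the receptor subunit for type I interferons, on top of Casp1 left several genes high. Against control 5 of the 9 were called higher, with 6.76% of all genes: Mmp7, Mmp12, Mmp9, Mmp10 and Timp1. Mmp8, on few reads, was not called (1.68). It was called by DESeq2 (1.73, adjusted p = 0.0337), and by edgeR with no filter (adjusted p = 0.0375) or without the third control (2.38, adjusted p = 0.0494). Mmp7 had 39.0, 60.4 and 51.9 RPKM (log2 fold change 4.12, SE 0.593, adjusted p = 2.85e-05) and lay between D387A-Cflar and D387A-Cflar-Casp1 with no overlap to either. Mmp9 had 32.6, 34.9 and 30.4 RPKM (2.32, SE 0.189, adjusted p = 1.61e-07), within the D387A-Cflar range. Timp1 had 9.85, 13.4 and 9.67 RPKM (1.01, SE 0.179, adjusted p = 0.000205), just past the fold threshold, and was not called without the second embryo of the group (0.84) or the third control (0.99), by limma-voom (0.992) or with a prior count of 2 (0.998). Mmp2 had 37.2, 33.6 and 35.8 RPKM, below all controls, with -0.52 (adjusted p = 7.75e-05) that was under the fold threshold. Against D387A-Cflar-Casp1, 1 gene was called higher, Mmp7 (2.20, SE 0.508, adjusted p = 0.00452), with 3.28% of all genes, and this call was lost with only the groups compared (adjusted p = 0.0561). Without the third D387A-Cflar-Casp1 embryo 4 were called higher, with 6.06% of all genes, namely Mmp7 (3.35), Mmp10 (1.90), Mmp12 (1.81) and Mmp13 (1.05). Neutrophil markers summed to 79.5 to 94.0 CPM in the Ifnar1-deficient group and macrophage markers to 534 to 607 CPM, both above all controls (14.9 to 34.4 and 398 to 426 CPM). Fibroblast markers (3186 to 3349 CPM) and smooth muscle markers (4245 to 4787 CPM) lay below all controls (3795 to 4168 and 5133 to 5574 CPM), as did epithelial markers (7990 to 9438 against 10388 to 11056 CPM). Against D387A-Cflar-Casp1, the fibroblast and endothelial sums (301 to 340 against 406 to 449 CPM) were lower with no overlap. Those of T and NK cells (6.41 to 8.84 against 3.46 to 5.48 CPM), of stomach and pancreas (76.95 to 149 against 11.4 to 24.0 CPM) and of neutrophils (against 21.4 to 77.9 CPM) were higher with no overlap. Without the third D387A-Cflar-Casp1 embryo the macrophage (against 365 and 355 CPM) and epithelial sums (against 6262 and 6957 CPM) were higher too, also with no overlap. The part of these lists in the Mmp2, Mmp7, Mmp12 and other values was not tested.

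Removal of Fadd, the adaptor that recruits caspase-8 to death receptors, on top of Casp1 gave levels close to control. No tested gene was called against control by edgeR, DESeq2 or limma-voom, with 3.78% of all genes called in either direction, and 1 gene, Mmp2 (-0.32, SE 0.0821, adjusted p = 0.0114), had an unadjusted p under 0.05. Mmp9 had 6.58, 8.31 and 8.53 RPKM, overlapping control. Mmp10 had 1.34, 1.10 and 1.25 RPKM and Timp1 5.43, 4.36 and 3.41 RPKM, and both overlapped control. In 3 genes the embryos lay outside the control range without a call: Mmp13 with 1.87, 2.32 and 1.84 RPKM was above all controls (0.56, adjusted p = 0.211), and Mmp2 with 36.5, 41.1 and 44.5 RPKM and Mmp14 with 25.3, 27.6 and 27.6 RPKM (-0.12, adjusted p = 0.298) were below all of them. Against D387A-Cflar-Casp1, 4 genes were called lower, with 0.877% of all genes: Mmp12 (-2.10), Mmp10 (-1.99), Mmp7 (-1.74) and Mmp9 (-1.70, SE 0.185, adjusted p = 2.53e-05). Without the third D387A-Cflar-Casp1 embryo 1 of them, Mmp9 (-1.49, SE 0.167, adjusted p = 3.80e-06), was called, with 0.894% of all genes called lower. Mmp10 (-2.05 to -1.91) and Mmp12 (-2.24 to -2.03) also lost the call without any 1 of the 3 D387A-Cflar-Casp1-Fadd embryos, and Mmp7 without the first (-1.41) or second (-1.48). By limma-voom Mmp7 (adjusted p = 0.0955), Mmp10 (adjusted p = 0.213) and Mmp12 (adjusted p = 0.143) were not called, Mmp7 was not called with RLE size factors (adjusted p = 0.052) or DESeq2 (adjusted p = 0.0677), and neither Mmp7 (adjusted p = 0.197) nor Mmp10 (adjusted p = 0.161) was called with only the groups compared. Neutrophil markers summed to 42.1 to 72.8 CPM in the Fadd-deficient group and macrophage markers to 489 to 509 CPM, both above all controls, while fibroblast markers (3203 to 3674 CPM) and smooth muscle markers (4331 to 4825 CPM) lay below all controls (3795 to 4168 and 5133 to 5574 CPM). Against D387A-Cflar-Casp1 the epithelial sum (10370 to 11334 against 6262 to 8373 CPM) and the T and NK cell sum (6.32 to 10.004 against 3.46 to 5.48 CPM) were higher and the fibroblast and endothelial sums (315 to 351 against 406 to 449 CPM) lower with no overlap. Without the third D387A-Cflar-Casp1 embryo the neutrophil (against 21.4 and 25.1 CPM) and macrophage sums (against 365 and 355 CPM) were higher too, also with no overlap. Their part in these values was not tested.

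**Figure D2:**
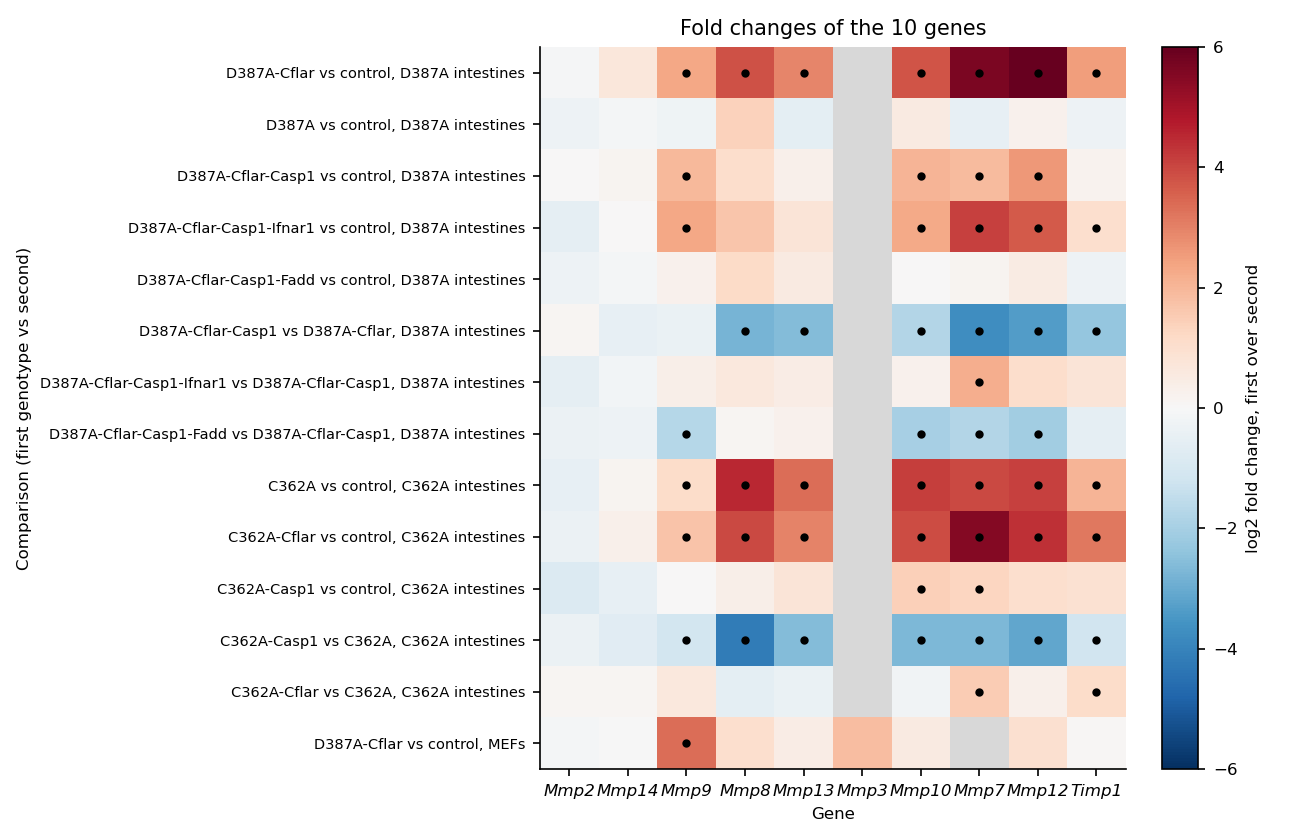
Log2 fold change of the 10 genes (columns) in the 14 comparisons between genotypes (lines), on a colour scale from lower to higher; dots mark calls by edgeR and grey marks genes not tested. The 7 dots of D387A-Cflar against control fall on the same genes in C362A and C362A-Cflar, which share another control group, and MEFs show a single dot, at Mmp9.

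The order of genotypes differed among genes of the D387A intestines. For Mmp7, Mmp10, Mmp12 and Timp1 the highest mean belonged to D387A-Cflar, next came D387A-Cflar-Casp1-Ifnar1 and then D387A-Cflar-Casp1. For Mmp7 and Timp1 each of the first 3 was clear of the next in range, except that D387A-Cflar-Casp1 overlapped the genotype below it. Without the third D387A-Cflar-Casp1 embryo this genotype kept its place for Mmp7, Mmp12 and Timp1, but for Mmp10 its mean of 1.59 RPKM was under that of D387A, with overlapping ranges. For Mmp9, D387A-Cflar, D387A-Cflar-Casp1-Ifnar1 and D387A-Cflar-Casp1 were neighbours whose ranges overlap (the last no longer without the third embryo), all clear of D387A-Cflar-Casp1-Fadd, control and D387A, which overlap among themselves. For Mmp14, D387A-Cflar stood clear above D387A-Cflar-Casp1, which in turn stood clear above the rest.

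In the C362A intestines, where caspase-8 lacks its protease activity, 7 of the 9 tested genes rose in C362A against control, with 10.4% of all 19408 genes called higher. The genes were Mmp8, Mmp10, Mmp12, Mmp7, Mmp13, Timp1 and Mmp9. Mmp10 had 23.5, 16 and 24.6 RPKM against 0.876, 1.26 and 1.47 RPKM (log2 fold change 4.15, SE 0.241, adjusted p = 9.53e-09). Mmp7 had 63.2, 84.3 and 71.3 RPKM against 3.51, 6.12 and 4.20 RPKM (3.98, SE 0.382, adjusted p = 1.17e-06). Mmp13 had 10.9, 10.2 and 13.0 RPKM against 1.13, 0.965 and 1.27 RPKM (3.34, SE 0.214, adjusted p = 2.3e-08). In all 3 genes every C362A embryo lay above every control. Timp1 had 15.8, 15 and 13.9 RPKM against 3.56, 3.37 and 3.98 RPKM (2.04, SE 0.305, adjusted p = 8.83e-05). Mmp9 had 13.7, 12.5 and 19.5 RPKM against 6.77, 7.02 and 7.43 RPKM (1.11, SE 0.186, adjusted p = 0.000241), and its log2 fold change was 0.89, under the threshold, without the third C362A embryo. Mmp2 (-0.48) and Mmp14 (0.17) were not called, and both overlapped control.

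Mmp8 passed the read filter through the genotypes with high levels, as did Mmp12. The count of 7, like the counts in the other C362A comparisons, describes the list only. Mmp8 had 4.80, 3.54 and 5.40 RPKM against 0.121, 0.142 and 0.342 RPKM in control, where it rested on 8, 10 and 19 reads, a log2 fold change of 4.54 (SE 0.310, adjusted p = 4.03e-08). Neutrophil markers moved with it: their sum was 390 to 489 CPM in C362A and 21.2 to 41.1 CPM in control, with 8 of 11 tested called higher. Macrophage markers summed to 581 to 640 CPM against 366 to 428 CPM, with 7 of 10 called higher, beside Mmp12 at 0.708, 0.912 and 0.908 RPKM against 0.0346 to 0.0657 RPKM (4.11, SE 0.309, adjusted p = 9.99e-08). Epithelial markers summed to 6501 to 8018 CPM against 8852 to 12409 CPM. Whether cell numbers account for any part of these values was not tested. Mmp3 was at 5, 13 and 8 reads in C362A and 0, 1 and 0 reads in control and did not pass the read filter. Without the filter it was called in C362A (4.18, SE 1.01, adjusted p = 0.00118) and, at 2, 7 and 2 reads, in C362A-Cflar (3.05, adjusted p = 0.0371), with sizes that depend on the prior count.

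Losing Casp1 on the C362A background lowered the same 7 genes, with 5.72% of all genes called lower, and the 9 tested had -2.58 as the median of their log2 fold changes. Both values include Mmp8 and Mmp12 and describe the list only. Mmp8 fell to 0.249, 0.309 and 0.185 RPKM (-4.20, SE 0.302, adjusted p = 3.15e-07) while the neutrophil marker sum stood at 100 to 149 CPM, still above control. Mmp9 fell to 5.38, 6.75 and 9.24 RPKM (-1.10, SE 0.187, adjusted p = 0.000492), and Timp1 to 4.66, 9.28 and 6.49 RPKM (-1.13, SE 0.292, adjusted p = 0.00867). Mmp9 overlapped control, while Timp1 lay above all 3 controls. Both were under the fold threshold without the first C362A-Casp1 embryo (-0.94 for Mmp9 and -0.93 for Timp1), and Mmp9 also without the third C362A embryo (-0.88). Mmp14 had 14.6, 18.8 and 19.3 RPKM against 32.6, 22.8 and 28.6 RPKM in C362A (-0.67, adjusted p = 0.00918, under the fold threshold). Against control 2 genes were called higher in C362A-Casp1, with 6.79% of all genes: Mmp10 with 3.15, 3.21 and 3.44 RPKM (1.45, SE 0.239, adjusted p = 0.0004) and Mmp7 with 16.1, 11.3 and 6.47 RPKM (1.29, SE 0.370, adjusted p = 0.0151). The Mmp7 call was lost without the first control (1.09) or the first C362A-Casp1 embryo (0.92). Mmp2 had 18.7, 22.3 and 26.9 RPKM, below the controls at 52.8, 37.2 and 31.0 RPKM, and was not called (-0.83, adjusted p = 0.00525), except without the third control (-1.01) or with the controls of both intestine sets pooled (-1.06, adjusted p = 1.41e-06). In these same settings Mmp12 was called too (1.21 and 1.26), as was Timp1 without the first C362A-Casp1 embryo (1.10). Other marker sums also moved from C362A to C362A-Casp1: the epithelial list went from 6501 to 8018 CPM to 12921 to 15074 CPM, the T and NK cell list from 40.4 to 42.2 CPM to 11.6 to 14.1 CPM and the fibroblast list from 2052 to 2678 CPM to 1210 to 1913 CPM, none with overlap. Against control the epithelial (8852 to 12409 CPM), macrophage (544 to 588 against 366 to 428 CPM) and T and NK cell sums (7.06 to 9.33 CPM) of C362A-Casp1 were higher with no overlap. Their part in these values was not tested.

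In C362A-Cflar, which differs from control at both Casp8 and Cflar, 7 genes were called higher against control, the same genes as in C362A, with 13.4% of all genes. Mmp7 had its highest mean here, with 309, 208 and 112 RPKM (5.50, SE 0.403, adjusted p = 6.81e-08), although the third embryo was below every D387A-Cflar embryo. Timp1 had 50.2, 25.4 and 21.3 RPKM (3.15, SE 0.311, adjusted p = 1.18e-06), with its highest value in the embryo that was also highest for Mmp7. Against C362A, 2 genes rose, with 1.45% of all genes: Mmp7 (1.52, SE 0.330, adjusted p = 0.00552) and Timp1 (1.11, SE 0.281, adjusted p = 0.013). The Timp1 call was lost without the first C362A-Cflar embryo (0.65, adjusted p = 0.0649) and without the third C362A embryo (1.06, adjusted p = 0.0585). Mmp9 had 24.9, 24.0 and 21.4 RPKM, above all C362A embryos, with 0.62 (adjusted p = 0.0287) under the fold threshold. Mmp8 had 2.92, 3.31 and 2.92 RPKM, below all C362A embryos, and the change of -0.59 was not called. The neutrophil sum was 215 to 284 CPM, also below that of C362A, and above that of control (21.2 to 41.1 CPM) with no overlap. Other sums differed from C362A with no overlap, lower for macrophages (412 to 464 against 581 to 640 CPM) and epithelium (4121 to 5693 against 6501 to 8018 CPM) and higher for smooth muscle (6077 to 7155 against 3229 to 4499 CPM). Against control the epithelial sum was lower (4121 to 5693 against 8852 to 12409 CPM) and the smooth muscle sum higher (6077 to 7155 against 2595 to 4240 CPM), as was that of T and NK cells (26.2 to 42.3 against 7.06 to 9.33 CPM), all with no overlap, and their part in these values was not tested.

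The differences of D387A-Cflar and of C362A-Cflar from their own controls, each a change at both Casp8 and Cflar, were then compared in a joint fit. Their Cflar deletions were made separately and are not the same. No tested gene among the 10 was called, with 0.0764% of all 19643 genes called in either direction, and limma-voom called none either. The largest estimate was 1.58 for Mmp12 (SE 0.831, adjusted p = 0.28), past the fold threshold but not the threshold on adjusted p, and 2 genes had an unadjusted p under 0.05, Mmp9 (0.61, adjusted p = 0.207) and Mmp14 (0.36). The effect of Casp1 loss in D387A-Cflar minus its effect in C362A was called in 1 gene, Timp1 (-1.14, SE 0.346, adjusted p = 0.0249), with 0.825% of all genes called lower. Timp1 thus fell more with Casp1 loss in D387A-Cflar, from 31.2 ± 5.34 to 6.34 ± 0.983 RPKM, than in C362A, from 14.9 ± 0.943 to 6.81 ± 2.32 RPKM. The Timp1 difference was not called without the third C362A (-1.09), the second C362A-Casp1 (-0.85), the third D387A-Cflar (-1.001) or the second D387A-Cflar-Casp1 embryo (-1.02). For Mmp9 the difference ran the other way, at 0.74 (adjusted p = 0.057), and was not called. Without the third D387A-Cflar-Casp1 embryo the difference was also called for Mmp7, at -2.17 (adjusted p = 0.0121), with 2.23% of all 20096 genes called lower.

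In MEFs the balance of genes was another one from the start. Timp1 had 233, 269 and 261 RPKM, Mmp14 229.8, 228 and 226 RPKM and Mmp2 172, 117 and 113 RPKM in control cultures. Mmp7 had 0 reads in all 6 libraries, where 3 reads per genotype would equal 0.0334 RPKM in control and 0.0389 RPKM in D387A-Cflar. Between control and D387A-Cflar 1 gene rose, Mmp9, with 0.0711% of all 15465 genes called higher. It had 26, 36 and 44 reads in control and 338, 278 and 355 in D387A-Cflar, or 0.254, 0.372 and 0.649 RPKM against 4.85, 4.14 and 3.83 RPKM (3.37, SE 0.288, adjusted p = 0.00692). Every D387A-Cflar culture lay above every control, and the adjusted p was 0.0666 without control replicate 2 and 0.0543 without D387A-Cflar replicate 2. Mmp3 had 0.413, 0.365 and 0.312 RPKM in control and 0.962, 1.39 and 1.62 RPKM in D387A-Cflar with no overlap, but was not called (1.85, SE 0.293, adjusted p = 0.121). DESeq2 called it, with 1.86 (adjusted p = 0.00142), as did edgeR without the read filter (1.85, adjusted p = 0.00379). Mmp13 had 6.21, 1.31 and 2.40 RPKM in control and 10.03, 2.25 and 1.26 RPKM in D387A-Cflar, groups that overlap widely (0.43). Timp1 (0.07), Mmp14 (-0.02) and Mmp2 (-0.10) gave estimates close to 0. The labels call the cultures of a genotype biological replicates, and the p-values measure the spread between these cultures.

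**Figure D3:**
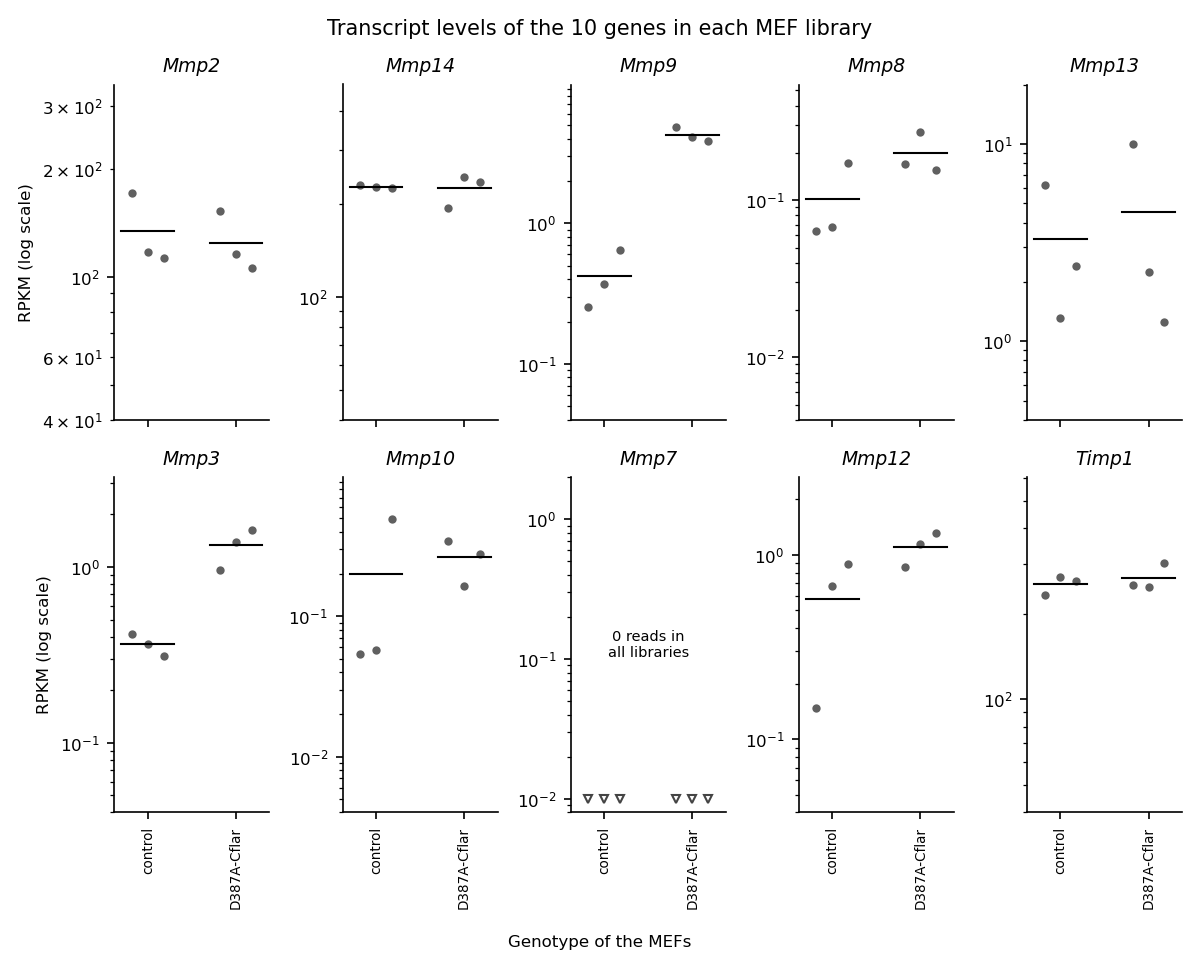
Level of each of the 10 genes in the 6 MEF libraries, in RPKM on a log axis, for control and D387A-Cflar; points are libraries, lines are group means and open triangles mark libraries with 0 reads. Mmp9 lies between 3.83 and 4.85 RPKM in D387A-Cflar and at or below 0.649 RPKM in control, while Timp1, Mmp14 and Mmp2 overlap.

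The difference of D387A-Cflar from control was then compared between MEFs and intestine, as that in MEFs minus that in the D387A intestines. In this fit 1 gene was called higher, with 8.01% of all 18862 genes, and 5 lower, with 7.3% of all genes. Mmp9 rose more in MEFs (1.03, SE 0.336, adjusted p = 0.0191), from a level far below that of intestine. Mmp12 (-5.01, SE 0.887, adjusted p = 0.000115), Timp1 (-2.47, SE 0.208, adjusted p = 1.02e-08), Mmp13 (-2.51, SE 0.789, adjusted p = 0.0149), Mmp8 (-2.83, SE 0.928, adjusted p = 0.0192) and Mmp3 (-4.48, SE 1.69, adjusted p = 0.0446) had the smaller effect in MEFs. The Mmp9 difference was under a threshold without MEF control 1 (0.74) or 2 (0.97), MEF D387A-Cflar 1 (0.93), intestine control 2 (0.99) or intestine D387A-Cflar 1 (0.99) or 2 (0.90), and limma-voom did not call it (1.13, adjusted p = 0.0526). Mmp3 was called without the third MEF D387A-Cflar culture or D387A-Cflar intestines 1 or 2, and without any other library it was not (-4.56 to -3.98). Mmp8 lost its call without intestine control 1 (-2.56) or MEF control 3 (-2.29), and Mmp13 without MEF control 1 (-1.65). Mmp10 was not called (-3.16, adjusted p = 0.0562), and was called with the replicate number as a block (-3.07, adjusted p = 0.0389) and without MEF control 1 (-3.66) or 2 (-3.62) or D387A-Cflar intestine 2 (-3.38). The Mmp3, Mmp8 and Mmp12 values rest on few or no reads in control intestines, so their sizes depend on the prior count. Neutrophil markers summed to at most 2.50 CPM in the MEFs, and fibroblast markers to 22772 to 25910 CPM.

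The sum of the 9 Mmp levels and its ratio to Timp1 describe how transcripts of the enzymes stood against those of the inhibitor. The sum was 92.0 ± 3.86 RPKM in control and 303.6 ± 12.5 RPKM in D387A-Cflar, 3.30-fold higher, and the share of Mmp7 went from 3.11% to 48.5% while that of Mmp2 went from 55.2% to 15.8%. The ratio of the sum to Timp1 was 16.9 ± 0.790 in control and 9.89 ± 1.26 in D387A-Cflar, so Timp1 was up by a larger factor than the sum. Without Mmp2 and Mmp14, which carried most of the control sum, the ratio turned: it was 2.22 ± 0.266 in control and 6.82 ± 0.866 in D387A-Cflar, 3.07-fold higher. For the sum and for both ratios the 3 embryos of one group lay apart from the 3 of the other, and the exact two-sided permutation p was 0.1, the smallest that 3 against 3 allows, so none could reach 0.05. For the sum and the ratio over all 9 genes it was 0.165 after Benjamini-Hochberg adjustment over 28 such exact tests. The shares were not tested.

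In the C362A set the sum was 79.5 ± 15 RPKM in control, 183 ± 9.39 RPKM in C362A, 64.2 ± 4.05 RPKM in C362A-Casp1 and 326 ± 97.4 RPKM in C362A-Cflar. The mean ratio to Timp1 was 22.1 ± 5.15 in control, 12.3 ± 1.30 in C362A, 10.1 ± 2.91 in C362A-Casp1 and 10.7 ± 2.17 in C362A-Cflar. Without Mmp2 and Mmp14 the order was another one: the ratio was 3.94 ± 0.594 in control, 8.53 ± 1.14 in C362A, 3.86 ± 1.62 in C362A-Casp1 and 8.40 ± 1.78 in C362A-Cflar, with C362A clear of control (2.16-fold) and C362A-Casp1 overlapping it (0.978-fold). The mean sum in C362A-Casp1 was thus under that of every other genotype, with values that overlap its control, and Mmp7 made up 18% and Mmp2 35.1% of it. In D387A-Cflar-Casp1 the sum was 128 ± 19.7 RPKM and the ratio 20.2 ± 1.78 (117 RPKM and 19.9 without the third embryo). With Casp1 loss the mean ratio thus went to 2.05-fold in D387A-Cflar and to 0.817-fold in C362A, a difference between the sets that was not tested. Without Mmp2 and Mmp14 it went to 0.975-fold in D387A-Cflar, from 6.82 to 6.65 (5.08 without the third embryo), and to 0.452-fold in C362A. In D387A-Cflar-Casp1-Ifnar1 they were 157 ± 9.29 RPKM and 14.5 ± 1.99, with Mmp9 at 20.8% of the sum, and without Mmp2 and Mmp14 the ratio was 8.44 ± 0.932, 3.80-fold of control. In MEFs the sum was 367 ± 36.5 RPKM in control and 361 ± 10.1 RPKM in D387A-Cflar, and the ratio 1.45 ± 0.258 and 1.36 ± 0.177, with overlapping values. These rested on Mmp2 and Mmp14: without them the MEF sum was 4.97 ± 2.15 RPKM in control and 11.7 ± 4.82 RPKM in D387A-Cflar (2.35-fold, no overlap, exact permutation p = 0.1), and the ratio 0.0200 ± 0.010 and 0.0445 ± 0.0210 (2.23-fold, with overlap, exact permutation p = 0.2).

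**Figure D4:**
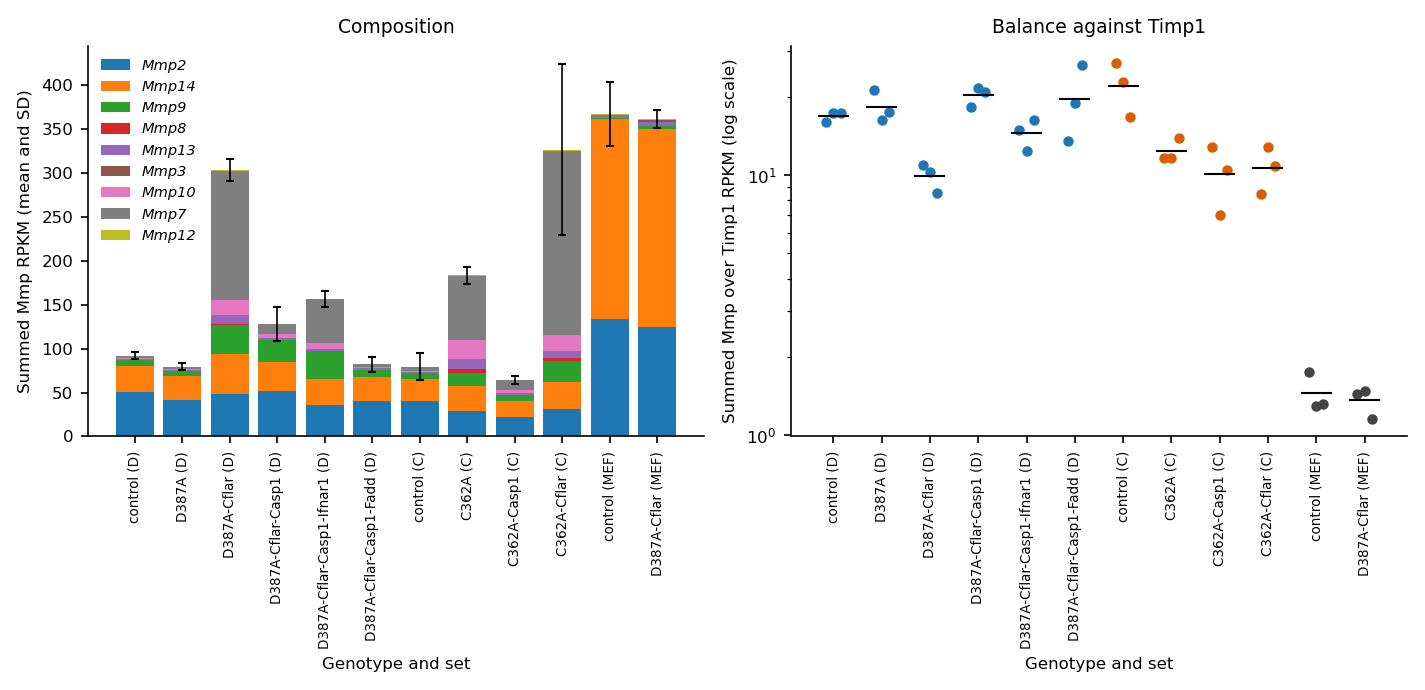
Stacked mean level of the 9 Mmp genes in the 12 groups, in RPKM with the SD of the sum (n = 3), and the ratio of the sum to Timp1 in every library on a log axis. Mmp7 fills 48.5% of the D387A-Cflar bar and 61.8% of the C362A-Cflar bar, Mmp14 and Mmp2 fill nearly all of the MEF bars, and the ratio lies between 1.16 and 1.75 in MEFs.

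Other genes of the proteolytic system were read from lists chosen by function. The counts below stand beside shares of all genes tested of 9.4% called higher in D387A-Cflar and 10.4% in C362A against control, and of 4.51% called lower with Casp1 loss in D387A-Cflar (6.36% without the third D387A-Cflar-Casp1 embryo) and 5.72% in C362A. Of the remaining Mmp and Timp genes with Reck, a membrane inhibitor of metalloproteinases, 4 of 14 tested rose in D387A-Cflar against control and none fell, led by Mmp19 (2.06, SE 0.279, adjusted p = 6.00e-06), Mmp20 (1.77, adjusted p = 0.0176) and Mmp25 (1.71, adjusted p = 3.91e-05), the last also counted here as a neutrophil marker. In C362A 5 of 14 rose. Of the plasminogen system, whose protease plasmin activates pro-MMPs, listed together with the proprotein convertase Furin, 3 of 6 tested rose and 1 fell in D387A-Cflar. Plaur, the urokinase receptor, went from 2.97 ± 0.465 to 31.9 ± 4.48 RPKM (3.42, SE 0.435, adjusted p = 2.90e-06), Plau, urokinase itself, rose by 1.66 (adjusted p = 4.92e-05) and Plat, the tissue-type plasminogen activator, by 1.35 (adjusted p = 0.000121). Plg, the plasminogen precursor made mainly in liver, fell by 2.42 (adjusted p = 0.0436), from 1.03 ± 1.52 to 0.194 ± 0.2965 RPKM. The SD exceeded the mean in both groups, so single embryos can carry this call. In D387A-Cflar-Casp1 against D387A-Cflar 2 of these 6 fell, Plau and Plaur, and without the third D387A-Cflar-Casp1 embryo 4 of 7 tested, Plat among them (-1.09, adjusted p = 0.000174). Of the other Mmp and Timp genes 1 of 14 fell, Mmp19 (-2.36), and without that embryo 3 of 15.

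Of 14 ADAM and ADAMTS proteinases 2 rose in D387A-Cflar, Adam8, a leukocyte sheddase (3.18, SE 0.249, adjusted p = 8.68e-09), and Adamts4, an aggrecanase (1.32, adjusted p = 9.18e-06), and 3 fell with Casp1 loss (4 without the third D387A-Cflar-Casp1 embryo). The count of 2 of 14 is near the share over all genes. Of 10 matrix substrates 4 rose, led by Vcan, versican (1.42), Eln, elastin (1.29), and Fn1, fibronectin (1.23), and 4 fell with Casp1 loss, also without that embryo. Of 8 AP-1 subunits 5 rose in D387A-Cflar and 5 in C362A. Fosl1, encoding Fra-1, went from 0.0295 ± 0.0295 to 1.02 ± 0.232 RPKM (4.95, SE 0.815, adjusted p = 5.08e-05), Atf3 rose by 2.47 (adjusted p = 5.32e-06) and Junb went from 23.2 ± 1.19 to 109 ± 8.82 RPKM (2.23, SE 0.198, adjusted p = 4.11e-08). With Casp1 loss 4 of them fell, Fosl1 by 3.09 (adjusted p = 0.000648) and Junb by 1.33 (adjusted p = 2.39e-05) among them, while Atf3 had 0.08 (adjusted p = 0.835). Atf3 had 12.9 and 12.4 RPKM in the first and second D387A-Cflar-Casp1 embryos and 36.5 RPKM in the third, around the 17.6 to 21.2 RPKM of D387A-Cflar. Without the third, 4 AP-1 genes were again called lower, with Fosl1 at -5.96 and Junb at -1.75, and Atf3 had -0.62 (adjusted p = 0.00421), under the fold threshold.

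Of 8 cytokines known to raise these proteases 5 rose in D387A-Cflar and 6 in C362A. Il1b went from 0.455 ± 0.238 to 24.2 ± 7.16 RPKM (5.73, SE 0.369, adjusted p = 7.92e-10), Tnf from 0.0618 ± 0.0301 to 3.22 ± 0.806 RPKM (5.62, SE 0.753, adjusted p = 5.35e-06) and Il6 from 0.0213 ± 0.0216 to 0.844 ± 0.306 RPKM (5.18, SE 0.600, adjusted p = 2.25e-06). With Casp1 loss 4 of 8 fell and 1 rose in D387A-Cflar, with Il1b at -3.40 (adjusted p = 1.06e-07), Il6 at -3.83 (adjusted p = 1.45e-05) and Tnf not called (-1.0, adjusted p = 0.0821). Without the third D387A-Cflar-Casp1 embryo 5 fell and 1 rose, with 9.41% of all genes called higher, and Tnf was called (-2.37, adjusted p = 2.25e-06). With Casp1 loss in C362A 5 of 8 fell. In MEFs no gene of these 6 lists was called by edgeR, the only tool run on them, and 10 of the 53 tested had an unadjusted p under 0.05. The share of all MEF genes under that unadjusted threshold is not at hand, so this count is not read as a shift of the lists.

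Marker lists for other cells of the intestine moved too. In D387A-Cflar against control none of 6 smooth muscle markers was called, while their sum was 7063 to 8845 CPM against 5133 to 5574 CPM with no overlap, and none of 5 endothelial markers was called, with a sum of 361 to 452 CPM against 323 to 357 CPM, also with no overlap. The sum over T and NK cell markers was 15.6 to 23.5 CPM against 6.4 to 8.07 CPM, with 1 of 4 tested called higher. Of 9 tested stomach and pancreas markers 5 were called lower, in a list that summed to 42.1, 43.7 and 250.3 CPM in the 3 controls and 8.09 to 33.4 CPM in D387A-Cflar. The shares of all genes called lower in D387A-Cflar and in C362A against control are not at hand. Counts called lower in these comparisons, here and above, thus stand without them. In C362A none of the smooth muscle or endothelial markers was called. The T and NK cell sum was 40.4 to 42.2 CPM against 7.06 to 9.33 CPM, with 4 of 5 markers called higher and 1 lower, and of 8 stomach and pancreas markers 4 were called higher and 2 lower. The part of other cells or of neighbouring tissue in the metalloproteinase values was not tested.

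The genes whose pattern over the 30 intestine libraries was most like that of each member were found by Pearson correlation of log2 CPM after subtraction of each set's control mean, among 17887 genes. These are descriptions without a test, over libraries that share genotypes and controls. For Mmp8 they were Stfa2 (r = 0.984), Tarm1 and Cxcr2, and for Mmp10 they included Plaur (r = 0.973) and Map3k6. For Mmp7 they were Foxa3 (r = 0.973), Arhgef38 and Cxcl5, and for Mmp12 Lpcat4 (r = 0.976), Cxcl5 and Epb41l2. Mmp7 and Mmp12 themselves had r = 0.943. For Mmp13 they were Ifitm1 (r = 0.974), Serping1 and C1ra, for Timp1 Ecscr (r = 0.960), Rrm2 and Ifitm1, and for Mmp9 Ccr4 (r = 0.926), Irx3 and Slc38a2. For Mmp14 they were Sh3bp4 (r = 0.962), Irf2bpl and Actn1, and for Mmp2 Clip3 (r = 0.946), Col1a2, which encodes a chain of type I collagen, and Maged1.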

How the data were processed

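RNA was measured in 30 whole intestines and 6 MEF cultures by single-end sequencing. Per the labels and the study's methods, the authors aligned reads with GSNAP to GRCm38/mm10 and kept uniquely mapped reads. The counting tool, the annotation and the use of strand are not given in the sources used here, and the sources name different library kits (stranded and not). The deposited files hold read counts and RPKM per Ensembl gene for each library. The deposited RPKM were not used; RPKM were recomputed from the counts and the deposited gene widths on TMM-scaled totals (17943524 to 32307629 reads per library before scaling).

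Differences in the deposited counts were assessed in R 4.3.3 by edgeR 4.0.16 (quasi-likelihood F test, TMM, filterByExpr with at least 10 reads and 15 in total, prior count 0.125), with 1 fit for all groups of a set and Benjamini-Hochberg adjustment over all genes tested. SE is the size of the log2 fold change over the square root of F. The study's methods used limma; here limma 3.58.1 (voom) and DESeq2 1.42.0 were alternatives, with RLE size factors, a prior count of 2, no filter or one at 50 reads on average, only the groups compared, pooled controls, the replicate block, and each library left out. On simulated counts for the D387A-Cflar comparison, 100% of 50 genes changed 4-fold and 58% of 50 changed 2-fold were called. The changed genes were drawn only from genes above a set mean of reads, with the same dispersion for all genes. These rates thus do not carry over to members with few reads or a wide spread between embryos. A 2-fold change lies at the fold threshold itself. Levels summed over genes were compared by exact permutation tests. Intervals by floors of 3 reads cover counting error only.

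All 10 members were named, and of each pathway list up to 3 genes called in D387A-Cflar against control in each direction. The members and lists were chosen with earlier results of these data known. A gene of the plasminogen list and a gene of a correlated pattern are not reported here. Libraries of a genotype differed by more than sampling noise in all 36 pairs. Same-numbered libraries deviated together in MEFs (r = 0.21 to 0.35 in 3 of 3 pairs) but not in the D387A (9 of 45 pairs over 0.1) or C362A intestines (3 of 18 pairs), so replicate numbers were taken to pair only the MEFs, where the block did not change the number of genes called. RefSeq promoters were not at hand for Mmp2 and Mmp9.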

Additional observations from a re-analysis of the deposited data

Results flagged for a closer look

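The following values stand out because the same contrast gave different effects in different settings, by a test of the difference itself with edgeR. The effect of Casp1 loss on Timp1 differed between D387A-Cflar and C362A by -1.14 on the log2 scale. The effect of D387A-Cflar against control, as MEFs minus intestine, differed by -4.48 for Mmp3, -2.83 for Mmp8, 1.03 for Mmp9, -5.01 for Mmp12, -2.51 for Mmp13 and -2.47 for Timp1. In the controls of the D387A intestines, the set of this comparison, Mmp3 had 0 reads and Mmp8 and Mmp12 at most 6 and 3 reads, so the values of these genes are fitted values that depend on the prior count and give no fold or bound. With 1 library left out in turn, the call was lost in 9 of 12 cases for Mmp3, 6 for Mmp9, 2 for Mmp8 and 1 for Mmp13, and in 4 of 12 for the Timp1 difference between D387A-Cflar and C362A. MEFs and intestine differ together in tissue, culture and embryo age and, by the study's methods, in library kit, and D387A-Cflar and C362A differ in both the Casp8 allele and Cflar, so the parts of these cannot be told apart. No test of a single library's distance from the others was run, and the third D387A-Cflar-Casp1 embryo was left out by inspection of its values and not by such a test.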

How the results depend on the processing

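No member changed direction in any called result. Of the 60 calls, 454 of 471 values under other processing and 346 of 402 values with 1 library left out stayed past both thresholds. In D387A-Cflar against control 7 members were called whichever library was left out, and 5 to 8 under other processing. Counts that moved by over 1.5 times in some setting were D387A-Cflar-Casp1 against control (4, but 1 by limma-voom, 1 with only the groups compared, and 1 to 4 with a library left out), D387A-Cflar-Casp1-Ifnar1 against D387A-Cflar-Casp1 (1, but 0 with only the groups compared and 1 to 4 with a library left out), and D387A-Cflar-Casp1-Fadd against D387A-Cflar-Casp1 (4, but 1 by limma-voom, 1 with only the groups compared, and 1 to 4 with a library left out). C362A-Casp1 against control gave 2, but 4 with pooled controls and 1 to 4 with a library left out, and C362A-Cflar against C362A gave 1 to 2 with a library left out. MEFs gave 1, but 2 by DESeq2, 2 with no filter and 0 to 1 with a library left out. The difference in Casp1 loss gave 0 to 2 and that between MEFs and intestine 4 to 6 with a library left out, the latter 3 instead of 6 at a mean of 50 reads. Other counts moved less: D387A-Cflar-Casp1 against D387A-Cflar gave 6, with 5 to 6 when a library was left out and 4 to 7 under other processing, D387A-Cflar-Casp1-Ifnar1 against control 5, with 4 to 5 and 4 to 6, C362A against control 7, with 6 to 7 and 7 to 8, C362A-Cflar against control 7, with 7 and 7 to 8, and C362A-Casp1 against C362A 7, with 5 to 7 and 7. The causes were not tested. The counts of pathway lists without the third D387A-Cflar-Casp1 embryo were chosen after seeing the data.

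With the replicate number as a block the difference between MEFs and intestine gave 7 calls in place of 6, by gaining Mmp10, and the MEF comparison 1, with no other count moved. Raw totals in place of TMM move all log2 fold changes of D387A-Cflar against control by 0.22, and the summed Mmp level from 3.30-fold to 3.83-fold. Without Mmp2 and Mmp14 the sum was 17.3-fold higher and its ratio to Timp1 3.07-fold higher in place of 0.586. Mmp3, Mmp8 and Mmp12 in control intestines were limited by depth.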
